A study of Danio rerio with 30 samples.

Results

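Heat shock proteins and chaperones were followed through 10 zebrafish genes that cover the main chaperone families of the cell: the HSP90 genes *hsp90aa1.1*, *hsp90aa1.2*, *hsp90ab1* and *hsp90b1*, the HSP70 genes *hspa5*, *hspa8* and *hspa9*, the mitochondrial pair *hspd1* and *hspe1*, and the small heat shock gene *hspb1*. They were picked by name and family, with no limit on their measured levels, but with earlier results of these data known. All 10 were found among the 14648 genes of the triplicate experiment, the 14648 of the preliminary experiment at 21 hpf and the 31874 of the preliminary experiment at 18 hpf.

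Messenger RNA was sequenced from whole *AB zebrafish embryos at 18 and 21 hpf, when cells of the lateral plate move toward the future fin, to find genes that depend on the transcription factors Tbx5a and Tbx5b. Embryos were wildtype, or had been injected at the single cell stage with a morpholino, an antisense oligo, against Tbx5a, Tbx5b or both, and are called Tbx5a-, Tbx5b- and double-deficient. The triplicate experiment held 8 groups, the 4 genotypes at both stages, of 3 libraries each, and the eyes had been removed. The preliminary experiment held 6 libraries of embryos with eyes, 1 per stage for wildtype, Tbx5a- and Tbx5b-deficient embryos, while double-deficient embryos were left out. Each library was made from 10 pooled embryos, so that variation between single embryos could not be seen. A morpholino lowers the protein and leaves the gene intact, and a control morpholino for the wildtype embryos is not given in the sources used here.

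Levels are in FPKM, fragments per kilobase of transcript scaled for the size of the library, which allows genes of different length to be compared. How the authors scaled the groups to each other is not stated in the paper. The authors combined the 3 libraries of a triplicate group into 1 FPKM with a lower and an upper confidence bound, so no spread between libraries and no p-value can be given. A gene was kept in a comparison when its values were usable in both groups and at least 1 FPKM in 1 of them. It was counted as changed when the log2 ratio, with 1 FPKM added to both values, was at least 1 in size and the bounds in both groups stood apart. For the 10 chaperone genes the upper bound lay 42.1 to 107% above the value in the triplicate experiment, with a median of 46.9%, and 25.8 to 43.5% above it in the preliminary experiment, with a median of 27.3%. How many reads each library held is unknown, but the paper gives totals per experiment. The preliminary total was the larger, although that experiment held fewer libraries, so its libraries were deeper on average. Differences smaller than these widths were not detectable, and larger ones could go uncounted, since the bounds of both groups had to stand apart.

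The targeted transcripts gave no check of the labels, since a morpholino need not lower them. In the triplicate experiment *tbx5a* lay between 0.982 and 1.90 FPKM with overlapping bounds in all 8 groups, and *tbx5b* between 0.0699 and 0.229 FPKM. In the preliminary experiment *tbx5a* was 1.11, 1.01 and 5.30 FPKM at 18 hpf and 2.51, 16.1 and 3.88 FPKM at 21 hpf in the libraries labelled wildtype, Tbx5a- and Tbx5b-deficient. It was therefore highest in the library labelled Tbx5a-deficient at 21 hpf. Skeletal muscle markers were present throughout, with a sum of 3217 to 4706 FPKM at 18 hpf and 7687 to 11444 FPKM at 21 hpf in the triplicate experiment. The 24 eye markers summed to 34.3 to 77.6 FPKM in the triplicate groups, from which the eyes had been removed, and to 89.3 to 684 FPKM in the preliminary libraries. These are whole-embryo values, in which fewer cells of a type and less RNA per cell cannot be told apart.

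Chaperones bind proteins that are unfolded or only partly folded and keep them from clumping together. HSP70 proteins hold short stretches of a client in cycles of ATP use, helped by J-domain proteins and exchange factors, and HSP90 proteins act later on clients such as kinases, steroid receptors and the myosin motor. HSP60 with its HSP10 lid encloses clients in a chamber inside mitochondria, and small heat shock proteins hold unfolding proteins without ATP. Most cells express one set of these genes at all times and another after heat or other stress, the latter under the factor Hsf1, while the endoplasmic reticulum has its own members that answer to unfolded proteins there. In zebrafish, *hsp90aa1.1* is strongly expressed in developing skeletal muscle, where it works with Unc45b to fold myosin.

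All 10 chaperone genes were abundant. In wildtype embryos at 18 hpf of the triplicate experiment their FPKM fell in the order *hspa8* (3295), *hsp90ab1* (2211), *hspe1* (885), *hspb1* (428), *hsp90aa1.1* (428), *hspd1* (235), *hspa5* (133), *hspa9* (123), *hsp90aa1.2* (73.2) and *hsp90b1* (36.1). The bounds of each neighbouring pair in this order overlapped. In the narrower bounds of the preliminary wildtype library at 18 hpf, 3 steps stood out: *hsp90ab1* (lower bound 1422) lay above *hspe1* (upper bound 574), *hsp90aa1.1* (lower bound 299) above *hspb1* (upper bound 283), and *hspa5* (lower bound 90.9) above *hsp90aa1.2* (upper bound 48.9). These bounds rest on 1 library without replicates, so their narrower width does not mean that the order is better known. Together the 10 genes held 0.679 to 0.867% of all FPKM in the triplicate groups and 0.724 to 0.943% in the preliminary libraries. The constitutive cytosolic genes *hspa8* and *hsp90ab1* made up 65.8 to 72.9% of this in the triplicate groups and 72.0 to 79.3% in the preliminary libraries.

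**Figure D1:**
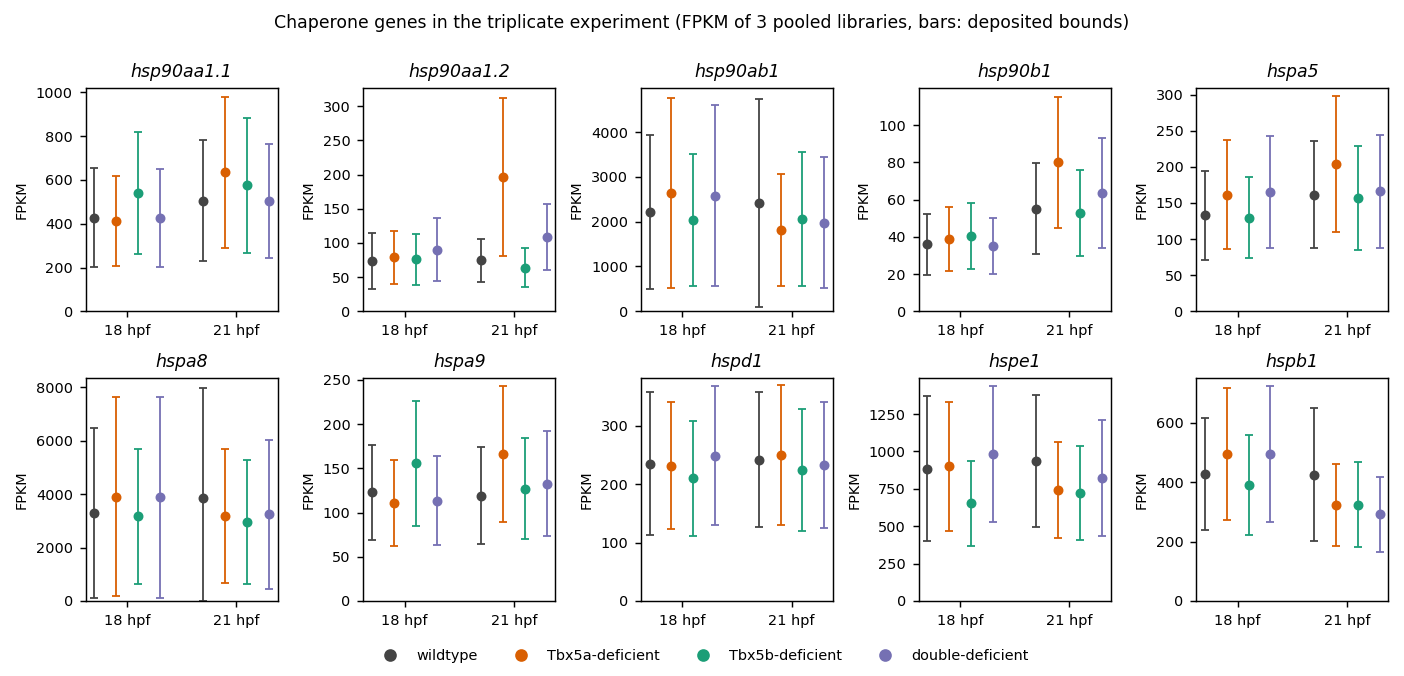
FPKM of the 10 chaperone genes in the 8 groups of the triplicate experiment, 4 genotypes (colours) at 18 and 21 hpf; points are 1 value from 3 pooled libraries and bars are the deposited bounds. The bars of every gene overlap between all groups, and *hsp90aa1.2* in Tbx5a-deficient embryos at 21 hpf (196 FPKM) stands highest above the other groups of its gene.

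No chaperone gene was counted as changed between deficient and wildtype embryos in the triplicate experiment. At 18 hpf 0 of 10 were counted as changed in Tbx5a-, Tbx5b- and double-deficient embryos, where 0.255, 0.254 and 0.237% of all kept genes were. At 21 hpf the count was again 0 of 10 in each, against 0.298, 0.224 and 0.277% of all kept genes. Among loci of at least 300 bp, as those of all 10 genes are, the shares were lower still, at 0.0759, 0.0473 and 0.0285% at 18 hpf and 0.0467, 0.0375 and 0.0464% at 21 hpf. With shares this low a count of 0 among 10 genes says little about these genes. Of the 60 log2 ratios 1 reached a size of 1, that of *hsp90aa1.2* in Tbx5a-deficient embryos at 21 hpf. With all groups scaled to equal sums, *hsp90b1* and *hspa9* reached it as well in that comparison, at 1.08 and 1.04 with overlapping bounds. The median of all kept genes was then 0.46 in that comparison. Over all 28 pairs of the 8 groups, the bounds of a chaperone gene were apart in 0 of 280 cases, and those of all genes compared in 0.651%.

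Among the cytosolic HSP90 genes, *hsp90aa1.2* held the one ratio that reached 1. The gene stands beside *hsp90aa1.1* on chromosome 20, at chr20:54178150-54192172 and chr20:54192872-54203475 in the coordinates of the triplicate values, whose genome build is not named with them. Groups are given below in the order wildtype, Tbx5a-, Tbx5b- and double-deficient. *hsp90aa1.2* was 73.2 (bounds 32.2 to 114), 78.9 (40.6 to 117), 76.2 (38.7 to 114) and 89.9 FPKM (44.0 to 136) at 18 hpf. At 21 hpf it was 74.5 (43.1 to 106), 196 (80.5 to 312), 63.8 (35.7 to 91.9) and 109 FPKM (60.9 to 157). Tbx5a-deficient embryos at 21 hpf were highest, then double-deficient embryos, and the other 6 groups lay between 63.8 and 89.9 FPKM. The value in Tbx5a-deficient embryos was 2.64-fold that in wildtype embryos, a log2 ratio of 1.39, which was above that of 99.8% of kept genes. The bounds still overlapped, from 80.5 to 106 FPKM, and the ratio of bound to bound ran from -0.39 to 2.83 on the log2 scale. With all groups scaled to equal sums the log2 ratio was 1.95 and the median of all kept genes 0.46. The bounds were then narrowly apart, at 81.9 in wildtype and 92.1 in Tbx5a-deficient embryos, and the gene was counted as changed. The share of all kept genes counted at that scale is not given here. In double-deficient embryos at 21 hpf the log2 ratio was 0.54. In Tbx5b-deficient embryos it was -0.22, or 0.19 with all groups scaled to equal sums, where the median of all kept genes was 0.32.

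The preliminary libraries did not show this height of *hsp90aa1.2*. The values were 38.2, 35.7 and 40.2 FPKM at 18 hpf in the libraries labelled wildtype, Tbx5a- and Tbx5b-deficient, and 60.4 (44.8 to 76.0), 43.8 (32.4 to 55.2) and 53.7 FPKM (39.8 to 67.6) at 21 hpf. The library labelled Tbx5a-deficient was the lowest of its stage at 21 hpf, with a log2 ratio of -0.45 and overlapping bounds. Only 0.747% of kept genes had a lower ratio in that comparison.

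*hsp90aa1.1*, the muscle HSP90, was 428, 412, 541 and 427 FPKM at 18 hpf and 506, 635, 575 and 503 FPKM at 21 hpf. It was highest in Tbx5a-deficient embryos at 21 hpf, by a log2 ratio of 0.33 to wildtype, but all its bounds overlapped, the lowest running from 201 and the highest to 981 FPKM. The preliminary values were 413, 345 and 312 FPKM at 18 hpf and 403, 411 and 465 FPKM at 21 hpf. The level of *hsp90aa1.1* was 3.23 times that of *hsp90aa1.2* in Tbx5a-deficient embryos at 21 hpf, the lowest ratio of the 8 groups, and 4.62 to 9.01 times in the other 7. The genes lie only 699 bp apart and encode very similar proteins, so short reads may have been shared out between them, and the value of either alone is uncertain. Summed, they gave 581 FPKM in wildtype and 832 FPKM in Tbx5a-deficient embryos at 21 hpf, a log2 ratio of 0.52.

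The genes whose levels over the 8 groups were most like those of *hsp90aa1.2*, by Pearson r of log2(FPKM + 1) among 6397 genes, were *ppt2* (0.957), *chordc1a* (0.931), *cyb5b* (0.931), *plp1a* (0.926) and *rnft1* (0.904). Chordc1 is a known partner of HSP90. Those most like *hsp90aa1.1* were *pcca* (0.977), *pls3* (0.962), *nexn* (0.956), *tescb* (0.943) and *rnaset2* (0.942). *nexn* encodes nexilin, an actin-binding protein of striated muscle. The 8 points are pooled values that the authors processed together, and r over so few points is only a description. It was taken on the deposited scale and not at equal sums.

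*hsp90ab1*, the constitutive cytosolic HSP90, at chr20:51385225-51398620, was 2211, 2630, 2033 and 2579 FPKM at 18 hpf and 2424, 1812, 2060 and 1974 FPKM at 21 hpf. Its partner in abundance, *hspa8* at chr10:29963158-29967371, the constitutive cytosolic HSP70 also known as Hsc70, was 3295, 3902, 3162 and 3886 FPKM at 18 hpf and 3839, 3174, 2954 and 3242 FPKM at 21 hpf. In both genes wildtype embryos were highest at 21 hpf. The log2 ratios to wildtype at 21 hpf were -0.42, -0.23 and -0.30 for *hsp90ab1* and -0.27, -0.38 and -0.24 for *hspa8*. With the groups scaled to equal sums they were 0.15, 0.18 and 0.15 for *hsp90ab1* and 0.29, 0.04 and 0.20 for *hspa8*. The medians of all kept genes were then 0.46, 0.32 and 0.35, above both genes as on the deposited scale. Equal sums multiply all genes of a group by the same factor, so this is no separate result. These genes had the widest bounds, up to 95.6% above the value for *hsp90ab1* and up to 107% for *hspa8*, whose lower bound in wildtype embryos at 21 hpf was 0.

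For *hspa8* the preliminary values were 2476 (1486 to 3466), 3637 (2169 to 5105) and 3389 FPKM (1975 to 4802) at 18 hpf and 3404 (2360 to 4448), 3319 (2308 to 4331) and 2209 FPKM (1568 to 2850) at 21 hpf. The library labelled wildtype was lowest at 18 hpf and the one labelled Tbx5b-deficient at 21 hpf, with overlapping bounds in each case. *hsp90ab1* was 2351, 2474 and 2544 FPKM at 18 hpf and 2601, 2679 and 2117 FPKM at 21 hpf.

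**Figure D2:**
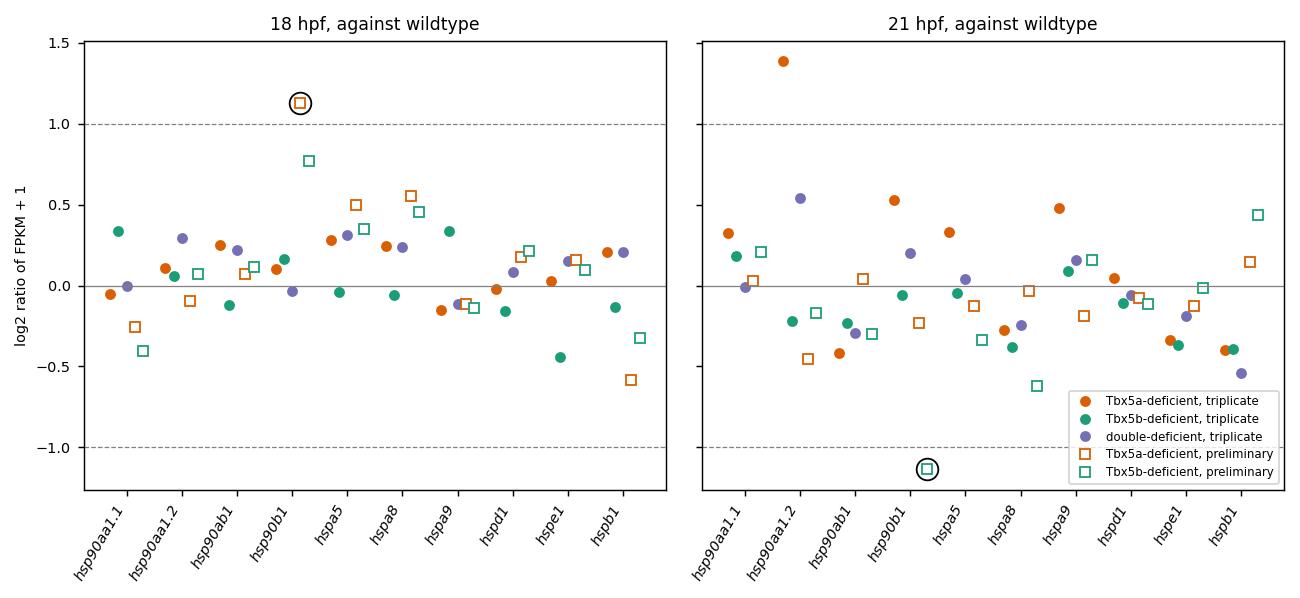
Log2 ratio of FPKM + 1 to wildtype for the 10 chaperone genes at 18 hpf (left) and 21 hpf (right), in the triplicate experiment (filled circles) and the preliminary experiment (open squares); dashed lines mark a log2 ratio of 1 in size and black rings the counted changes. The rings fall on *hsp90b1* in the preliminary libraries (1.13 and -1.14), and the point without a ring above 1 is *hsp90aa1.2* in Tbx5a-deficient embryos at 21 hpf (1.39).

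In the preliminary experiment *hsp90b1* was the chaperone gene counted as changed. *hsp90b1* encodes the HSP90 of the endoplasmic reticulum, also called Grp94, which folds secreted and membrane proteins such as integrins and Toll-like receptors. It lies at chr4:9835593-9842920 in the coordinates of the triplicate values and of the preliminary values at 21 hpf. It was 27.8 (19.9 to 35.7), 62.1 (45.0 to 79.1) and 48.1 FPKM (34.6 to 61.6) at 18 hpf in the libraries labelled wildtype, Tbx5a- and Tbx5b-deficient. At 21 hpf it was 102 (75.3 to 128), 86.7 (64.2 to 109) and 45.8 FPKM (33.9 to 57.6). The wildtype library was thus the lowest at 18 hpf and the highest at 21 hpf.

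*hsp90b1* was 2.23-fold higher in the library labelled Tbx5a-deficient than in the wildtype library at 18 hpf, a log2 ratio of 1.13 with bounds apart, and was the 1 of 10 chaperone genes counted as changed there, against 1.57% of all kept genes. In the Tbx5b-deficient library of 18 hpf its log2 ratio was 0.77 with overlapping bounds, and 0 of 10 were counted as changed, against 1.58% of all kept genes. At 21 hpf it fell in the library labelled Tbx5b-deficient, with a log2 ratio of -1.14 and bounds apart, again the 1 of 10, against 1.65% of all kept genes. In the library labelled Tbx5a-deficient at 21 hpf its log2 ratio was -0.23 and 0 of 10 were counted as changed, against 0.0772% of all kept genes. Both changes were still counted with the libraries scaled to equal sums. Over the pairs of libraries of a stage, the bounds of a chaperone gene were apart in 1 of 30 cases at 18 hpf and 2 of 30 at 21 hpf, all of them *hsp90b1*, against 1.98% and 2.70% of the cases of all genes compared. Each preliminary comparison rests on 1 library per group and has no replicate check, and those of a stage share 1 wildtype library.

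Other values moved with *hsp90b1* at 21 hpf in the library labelled Tbx5b-deficient. Of the eye markers 7 of 23 kept were counted lower there, with a median log2 ratio of -0.82, and their sum was 398 FPKM against 684 FPKM in wildtype. The share of all kept genes counted as changed in this comparison, in either direction, was 1.65%. Of the muscle markers 4 of 22 were counted lower, with a median of -0.49, and their sum was 16603 against 21175 FPKM. The blood markers followed the order of *hsp90b1* at both stages, with sums of 1006, 1390 and 1267 FPKM at 18 hpf and 3275, 3163 and 2144 FPKM at 21 hpf in the libraries labelled wildtype, Tbx5a- and Tbx5b-deficient. Of these markers *slc4a1a*, a red blood cell anion exchanger, was counted higher in both deficient libraries at 18 hpf (1 of 8 kept) and lower at 21 hpf in the library labelled Tbx5b-deficient (1 of 7 kept). At 18 hpf the shares of all kept genes counted as changed were 1.57 and 1.58% in the Tbx5a- and Tbx5b-deficient libraries. The yolk layer markers summed to 7365, 8770 and 7187 FPKM at 18 hpf and 13617, 12445 and 12636 FPKM at 21 hpf. The part of these tissues in the *hsp90b1* values was not tested. In the library labelled Tbx5a-deficient at 18 hpf, where *hsp90b1* rose, the eye markers summed to 90.2 FPKM against 89.3 FPKM in wildtype and the muscle markers to 2090 against 2652 FPKM.

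Neither change was counted in the triplicate experiment. *hsp90b1* was 36.1 (19.7 to 52.6), 38.8 (21.5 to 56.1), 40.7 (23.0 to 58.4) and 35.3 FPKM (20.2 to 50.4) at 18 hpf, and 55.1 (30.7 to 79.6), 80.0 (44.8 to 115), 53.0 (29.9 to 76.0) and 63.5 FPKM (34.1 to 92.9) at 21 hpf. All 4 genotypes had higher values at 21 than at 18 hpf, and Tbx5a-deficient embryos were highest at 21 hpf, with a log2 ratio to wildtype of 0.53 and overlapping bounds.

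*hspa5*, the HSP70 of the endoplasmic reticulum, known as BiP, lies at chr5:2440679-2448587. It was 133, 162, 130 and 166 FPKM at 18 hpf and 161, 203, 157 and 166 FPKM at 21 hpf in the triplicate experiment. Its preliminary values were 125, 177 and 159 FPKM at 18 hpf and 147, 135 and 116 FPKM at 21 hpf. Its preliminary order was that of *hsp90b1* at both stages, at smaller log2 ratios of 0.50, 0.35, -0.13 and -0.34, all with overlapping bounds.

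*pdia4* and a *calr* locus of the same compartment, chosen after their values were seen, had this order as well. How many other genes of this compartment had it was not counted. *pdia4*, a protein disulfide isomerase, was 24.5, 46.7 and 38.7 FPKM at 18 hpf and 65.7, 56.9 and 41.1 FPKM at 21 hpf in the preliminary libraries. *calr* on chromosome 22, which encodes the lectin chaperone calreticulin, was 77.3 (55.6 to 98.9), 140 (102 to 179) and 108 FPKM at 18 hpf and 180 (133 to 226), 163 and 103 FPKM (76.7 to 130) at 21 hpf. Its bounds were apart from wildtype in the library labelled Tbx5a-deficient at 18 hpf and in the one labelled Tbx5b-deficient at 21 hpf, as for *hsp90b1*, but its log2 ratios of 0.85 and -0.79 stayed under 1. This *calr* locus spanned 70976 bp in the preliminary values at 18 hpf and 6520 bp in those at 21 hpf. Its levels at the 2 stages may therefore not be comparable. Another *calr* locus, on chromosome 8, was measured at 21 hpf and is not given here. Over the endoplasmic reticulum list as a whole, 0 of 13 kept genes at 18 hpf and 0 of 25 at 21 hpf were counted as changed in any preliminary comparison. The share of all kept genes was 0.0772 to 1.65%, at which a count of 0 says little. The median log2 ratios of the list were 0.25 and 0.15 at 18 hpf and -0.09 and -0.25 at 21 hpf, where those of all kept genes lay between -0.03 and -0.00.

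**Figure D3:**
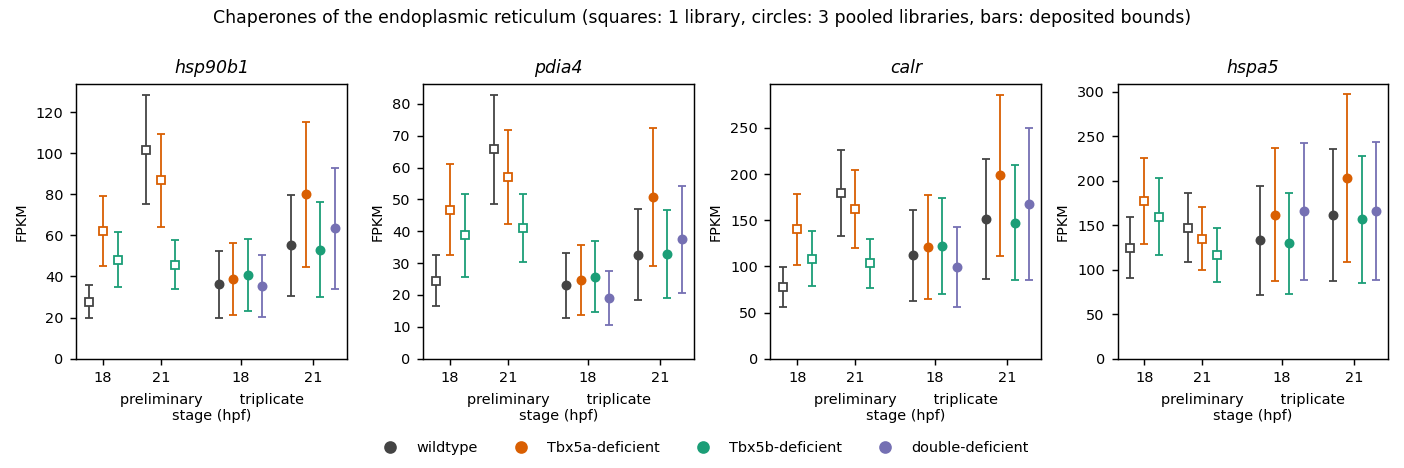
FPKM of *hsp90b1*, *pdia4*, *calr* (the locus on chromosome 22) and *hspa5* in the preliminary libraries (open squares, 1 library each) and the triplicate groups (filled circles, 3 pooled libraries) at 18 and 21 hpf, with the deposited bounds as bars. *pdia4* and *calr* were chosen after their values were seen. In the preliminary values the *calr* locus spans 70976 bp at 18 hpf and 6520 bp at 21 hpf. In the preliminary libraries the wildtype point is lowest at 18 hpf and highest at 21 hpf for all 4 genes (27.8 and 102 FPKM for *hsp90b1*), which is not seen in the triplicate groups.

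In the triplicate experiment the same list had a median log2 ratio of 0.37 over 24 kept genes in Tbx5a-deficient embryos at 21 hpf, against -0.02 for all kept genes. The count of changed genes was 0 of 24 in this comparison, against 0.298% of all kept genes, so that it says little. *pdia4* was 50.8 FPKM there and 32.7 FPKM in wildtype, and *serpinh1b*, the collagen chaperone Hsp47, was 929 and 570 FPKM. The most abundant member of the list, *ppib*, a prolyl isomerase of the secretory pathway, was 937 and 1311 FPKM. Of the 24 genes 22 had a log2 ratio above 0 and 2 below, on the deposited scale. At 21 hpf the list medians in the Tbx5b- and double-deficient groups were -0.02 and 0.13.

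Among the mitochondrial chaperones was the gene with the smallest span of the 10 in the triplicate experiment. *hspd1*, the HSP60 chamber, at chr9:32475860-32489970, ranged from 210 to 250 FPKM over the 8 triplicate groups, a 1.19-fold span, and from 163 to 207 FPKM over the preliminary libraries. *hspe1*, its HSP10 lid, lies 832 bp away at chr9:32490803-32493828 and was 885, 901, 652 and 984 FPKM at 18 hpf and 936, 740, 724 and 823 FPKM at 21 hpf. Tbx5b-deficient embryos were lowest in *hspe1* at both stages, with log2 ratios of -0.44 and -0.37. After scaling to equal sums these were -0.12 and 0.05, where the medians of all kept genes were 0.27 and 0.32. The preliminary libraries labelled Tbx5b-deficient were not the lowest in *hspe1*. Its values there were 450, 502 and 481 FPKM at 18 hpf and 417, 383 and 414 FPKM at 21 hpf. The level of *hspe1* was 2.96 to 3.95 times that of *hspd1* in the triplicate groups and 2.29 to 2.53 times in the preliminary libraries.

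*hspa9*, the mitochondrial HSP70 also called mortalin, at chr14:11836915-11861615, was 123, 111, 156 and 114 FPKM at 18 hpf and 119, 167, 127 and 133 FPKM at 21 hpf. It was highest in Tbx5b-deficient embryos at 18 hpf and in Tbx5a-deficient embryos at 21 hpf, by log2 ratios of 0.34 and 0.48 with overlapping bounds. Preliminary values were 143, 132 and 129 FPKM at 18 hpf and 149, 130 and 166 FPKM at 21 hpf. Of the 9 other mitochondrial chaperone genes measured, none was counted as changed in any of the 14 comparisons, where the share of all kept genes was 0.0772 to 1.65%, so that a count of 0 is no result about them. The most abundant of them, the protease subunit gene *clpp*, was 79.7 FPKM in wildtype embryos at 18 hpf.

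*hspb1*, the small heat shock protein Hsp27, which also binds actin, lies at chr5:3238393-3244467. It was 428, 494, 391 and 495 FPKM at 18 hpf and 425, 323, 324 and 291 FPKM at 21 hpf in the triplicate experiment. All deficient groups were below wildtype at 21 hpf, with log2 ratios of -0.40, -0.39 and -0.54. Of these the double-deficient ratio stayed below 0, at -0.10, after scaling to equal sums. The medians of all kept genes were then 0.46, 0.32 and 0.35. In the preliminary libraries *hspb1* was 221, 147 and 177 FPKM at 18 hpf and 190, 210 and 257 FPKM at 21 hpf. Wildtype was thus highest at 18 hpf and lowest at 21 hpf. All its bounds overlapped within each experiment and stage.

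Other small heat shock genes did pass the limits. The list held 10 measured genes in the preliminary experiment, where the deficient libraries of a stage share 1 wildtype library. At 18 hpf the shares of all kept genes counted as changed were 1.57 and 1.58% in the Tbx5a- and Tbx5b-deficient libraries. In the preliminary experiment at 18 hpf *hspb11* rose from 9.64 FPKM in wildtype to 26.5 and 21.9 FPKM in the libraries labelled Tbx5a-deficient and Tbx5b-deficient, with log2 ratios of 1.37 and 1.11. *hspb9* rose from 14.2 to 30.6 FPKM in the library labelled Tbx5a-deficient, a log2 ratio of 1.05, and was 25.2 FPKM in the one labelled Tbx5b-deficient. The triplicate values at 18 hpf ran the other way, with 39.4, 21.5, 29.7 and 16.2 FPKM for *hspb11* and 44.7, 19.2, 28.5 and 16.2 FPKM for *hspb9*, and overlapping bounds. *hspb2*, a small heat shock gene known from mammalian muscle, fell at 21 hpf in the library labelled Tbx5b-deficient, from 1.52 to 0.151 FPKM, a log2 ratio of -1.13. Both values lie near the limit of 1 FPKM, and 1.65% of all kept genes were counted as changed there.

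Between 18 and 21 hpf no chaperone gene was counted as changed within a genotype of the triplicate experiment. The counts were 0 of 10 in wildtype, Tbx5a-, Tbx5b- and double-deficient embryos, against 0.578, 1.06, 0.773 and 1.37% of all kept genes. *hsp90b1* had log2 ratios of 0.60, 1.03, 0.37 and 0.83 in these genotypes and stayed above 0 in all 4 after scaling to equal sums. *hsp90aa1.2* had a ratio of 1.30 in Tbx5a-deficient embryos and 0.03, -0.25 and 0.27 in the others, and *hspb1* had -0.01, -0.61, -0.27 and -0.76. Differences between genotypes in these ratios were not tested. Over the same interval *hspb11* rose in Tbx5a-deficient embryos, by 1.39, and in double-deficient embryos *hspb11*, *hspb7* and *hspb9* rose by 1.72, 1.76 and 1.87. *hspb7* is a small heat shock gene of heart and skeletal muscle. The skeletal muscle markers rose in the same comparisons, 13 of 22 in each of these genotypes, with medians of 1.74 and 2.16. They rose as well in Tbx5b-deficient embryos, 14 of 22 with a median of 1.90, and in wildtype embryos, 8 of 22 with a median of 1.26. In wildtype embryos 0 of 4 kept small heat shock genes were counted as changed, but all 4 had ratios above 0, with a median of 0.57 and a highest of 1.25. At 18 hpf *hspb11* and *hspb9* had been lower in Tbx5a- and double-deficient than in wildtype embryos, as given above, with overlapping bounds. The part of skeletal muscle in the rise of the small heat shock genes was not tested.

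The heat-inducible genes gave a mixed picture at 21 hpf. *hsp70l*, an HSP70 gene of the heat response, was 0.756, 1.68, 2.32 and 3.14 FPKM in the triplicate groups. In the preliminary libraries it was 1.76 (1.12 to 2.41), 0.579 (0.307 to 0.850) and 10.0 FPKM (7.20 to 12.8). It rose in the library labelled Tbx5b-deficient, by a log2 ratio of 1.99, and was the 1 of 28 kept genes of the cytosolic HSP70 list counted as changed there, against 1.65% of all kept genes.

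The rest of this group was chosen after its values were seen, apart from *chordc1a*, which was named above by its likeness to *hsp90aa1.2*. *hsp70.1* was 3.41, 11.0, 4.01 and 8.96 FPKM at 21 hpf in the triplicate groups, and *chordc1a* was 11.6, 22.4, 10.6 and 17.0 FPKM. *dnajb1b*, a J-domain partner of HSP70, was 57.2, 90.2, 51.1 and 79.5 FPKM. These genes shared the order of *hsp90aa1.2*, with Tbx5a-deficient embryos first and double-deficient embryos next, and none had bounds apart from wildtype. Since they were chosen by their values, the shared order is no separate result. Over the 28 kept genes of the cytosolic HSP70 list, 19 log2 ratios were above 0 and 9 below in Tbx5a-deficient embryos at 21 hpf, with a median of 0.12. *bag3*, an exchange factor for HSP70, was 11.9, 18.4, 15.6 and 17.3 FPKM. At 21 hpf of the preliminary experiment the order was another one, since *hsp70.1* was 3.68, 1.57 and 6.93 FPKM and *dnajb1b* 25.5, 20.8 and 33.7 FPKM, lowest in the library labelled Tbx5a-deficient. *hsf1*, which encodes the main factor of the heat response, was 4.85, 7.43, 7.04 and 7.95 FPKM in the triplicate groups at 21 hpf, with overlapping bounds.

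**Figure D4:**
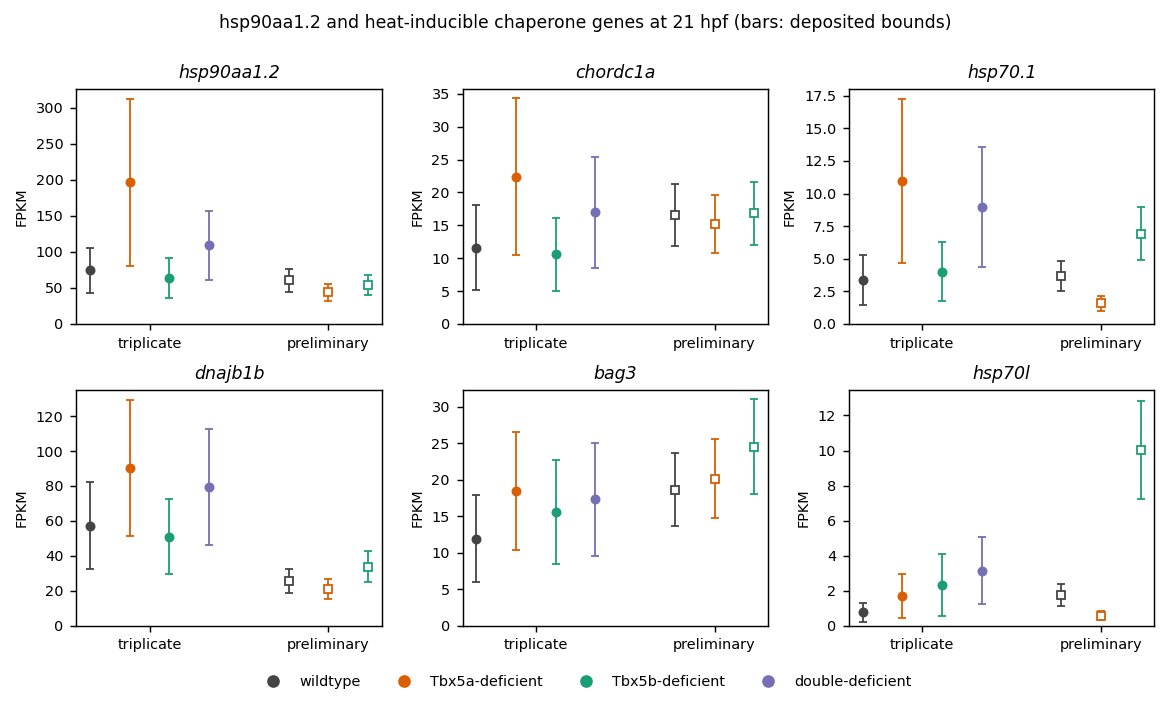
FPKM of *hsp90aa1.2*, *chordc1a*, *hsp70.1*, *dnajb1b*, *bag3* and *hsp70l* at 21 hpf in the triplicate groups (filled circles, 3 pooled libraries) and the preliminary libraries (open squares, 1 library each), with the deposited bounds as bars. *hsp70.1*, *dnajb1b* and *bag3* were chosen after their values were seen, and *chordc1a* by its likeness to *hsp90aa1.2*. Tbx5a-deficient embryos are highest in the triplicate groups for all but *hsp70l*, an order that this choice favours. Of the preliminary libraries the Tbx5b-deficient library is highest for *hsp70l* (10.0 FPKM), *hsp70.1* and *dnajb1b*, and the wildtype library for *hsp90aa1.2*.

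The remaining chaperone lists held few counted changes. Of the partners of HSP90, 0 of 12 kept genes were counted as changed in any triplicate comparison of genotypes, against 0.224 to 0.298% of all kept genes, a share at which a count of 0 says little. The list medians lay between -0.16 and 0.03. The myosin chaperone genes *unc45b* and *smyd1b*, which serve the same muscle protein as *hsp90aa1.1*, were 83.8, 118, 99.8 and 94.4 FPKM and 140, 144, 163 and 164 FPKM at 21 hpf, with overlapping bounds. The cytosolic chaperonin CCT, which folds actin and tubulin, had list medians of -0.31, -0.20 and -0.34 at 21 hpf over 16 kept genes, with 0 counted as changed. The share of all kept genes was 0.224 to 0.298%, at which a count of 0 again says little. The CCT subunit gene *cct2* was 912, 404, 566 and 507 FPKM at 21 hpf. In the preliminary experiment at 18 hpf *tbca*, a tubulin folding cofactor, rose from 45.6 FPKM to 114 and 102 FPKM in the libraries labelled Tbx5a-deficient and Tbx5b-deficient, log2 ratios of 1.30 and 1.14. Both ratios were taken to the same wildtype library. The list of *tbca* held 15 measured genes there, and 1.57 and 1.58% of all kept genes were counted as changed.

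**Figure D5:**
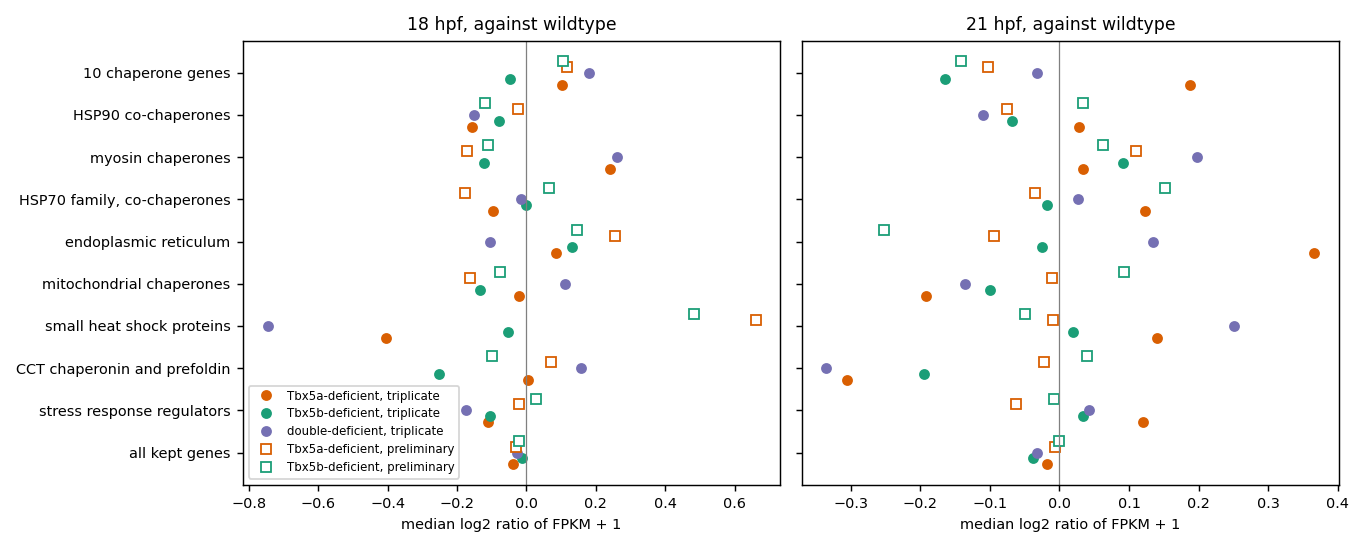
Median log2 ratio of FPKM + 1 to wildtype at 18 hpf (left) and 21 hpf (right) for the 10 chaperone genes, 8 lists of related genes and all kept genes, in the triplicate (filled circles) and preliminary (open squares) experiments. The endoplasmic reticulum list reaches 0.37 at 21 hpf in the triplicate group of Tbx5a-deficient embryos and -0.25 in the preliminary library labelled Tbx5b-deficient; the 2 panels have different scales.

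The scale of the values decided the direction of many small ratios, of abundant and less abundant genes alike. The FPKM of all genes summed to 859057 to 1293231 over the triplicate groups and was highest in wildtype embryos at 21 hpf. With all groups set to equal sums, the median log2 ratio of all kept genes moved by 0.48, 0.36 and 0.38 in the comparisons at 21 hpf and by 0.02, 0.28 and -0.10 at 18 hpf. The chaperone genes above 0 at 21 hpf then numbered 10, 10 and 9 of 10 in place of 6, 2 and 4. The median of all kept genes was itself 0.46, 0.32 and 0.35 after this scaling, so a ratio above 0 does not set the chaperone genes apart. In Tbx5b-deficient embryos at 21 hpf 8 of 10 turned, among them *hsp90b1*, from -0.06 to 0.35, and *hspa5*, from -0.04 to 0.37. The genes of at least 1000 FPKM in wildtype embryos at 21 hpf, 167 in number, had median log2 ratios of -0.71, -0.48 and -0.54 as deposited. *hsp90ab1* and *hspa8*, with ratios of -0.42 to -0.23, belong to these by their level. On the deposited scale the median ratio of the 10 chaperone genes lay between -0.16 and 0.19 over the 6 comparisons of genotypes, and that of all kept genes between -0.04 and -0.01. The deposited values thus already held the median of all kept genes near 0, and equal sums moved it away from 0 at 21 hpf.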

How the data were processed

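The members and gene lists were chosen with earlier results of these data known. RNA libraries (oligo dT) were aligned by the authors with TopHat2 2.1.0, per the labels, and the deposited values are gene FPKM from Cuffdiff, with confidence bounds in FPKM whose level is not given. The 3 libraries of each triplicate group, 24 in all, had been pooled by the authors into 1 value; the 6 preliminary libraries have 1 value each. The labels name GRCz10, the paper's methods an older build, so loci are given without a build and counted from 1.

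Genes were matched by name, and 10 of 10 members and 198 of 202 listed genes were found in RefSeq. Values were compared as log2(FPKM + 1) ratios in 14 comparisons. The rule for a counted change was tested on simulated data with changes far larger than those of the 10 members. How well it finds changes of their size was not tested. A linear model over libraries had been planned and was not run, as the values are pooled. Depth per library is unknown, as the paper gives only totals per experiment. Named were the members, list genes counted as changed in any comparison, the 3 most abundant genes of each list in wildtype at 18 hpf (shown where they bear on a member), and the 5 genes most like *hsp90aa1.1* and *hsp90aa1.2*. Alternatives were another pseudocount (0.1), limit (0.5), filter and scaling, and counting without the bounds. Python 3.11.15, pandas 2.3.3, numpy 2.4.6 and matplotlib 3.10.9 were used.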

Additional observations from a re-analysis of the deposited data

Results flagged for a closer look

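*hsp90b1* went opposite ways at the 2 stages of the preliminary experiment. In the library labelled Tbx5a-deficient its log2 ratio to wildtype was 1.13 at 18 hpf and -0.23 at 21 hpf. In the library labelled Tbx5b-deficient it was 0.77 at 18 hpf and -1.14 at 21 hpf. Both ratios of a stage were taken to the same wildtype library, at 27.8 FPKM at 18 hpf and 102 FPKM at 21 hpf. They are therefore not independent. The difference between stages was not tested, because each group is 1 library, and the stages were processed into separate sets of values. The triplicate ratios were 0.10 and 0.53 in Tbx5a-deficient and 0.17 and -0.06 in Tbx5b-deficient embryos.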

How the results depend on the processing

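The number of chaperone genes counted as changed was the same in all 14 comparisons with a pseudocount of 0.1 FPKM, a log2 limit of 0.5, no filter on low values, ratios centred on the median of all genes, or the bounds alone without a limit on the ratio. The pseudocount, limit and filter do not move the bounds, which overlapped for every chaperone gene in the triplicate comparisons. Changing them could therefore add no gene there, and the unchanged count is no separate result. In the preliminary comparisons the bounds stood apart only for the *hsp90b1* changes already counted, which these settings could at most have removed. All values of the chaperone genes lay above the filter of 1 FPKM. Without the bounds, *hsp90aa1.2* was counted in Tbx5a-deficient against wildtype embryos at 21 hpf of the triplicate experiment (1 gene in place of 0), and *hsp90aa1.2* and *hsp90b1* in Tbx5a-deficient embryos at 21 against 18 hpf (2 in place of 0). With all groups rescaled to equal sums, *hsp90aa1.2* was counted in Tbx5a-deficient against wildtype embryos at 21 hpf (1 in place of 0), since its rescaled bounds no longer overlapped. The shares of all kept genes counted without the bounds or after rescaling are not given here, so these counts cannot be set against them. Chosen after seeing the data, the sum of *hsp90aa1.1* and *hsp90aa1.2* lowered the log2 ratio of 1.39 to 0.52, and limiting all genes to loci of at least 300 bp lowered the share counted as changed in the 6 triplicate comparisons of genotypes from between 0.224 and 0.298% to between 0.0285 and 0.0759%. No paired analysis was possible because the 3 libraries of a group were pooled into 1 value, and for the same reason no library could be left out. Reads per library are unknown, and the width of the bounds limits what could be seen.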

Other observations

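Genes that regulate the stress responses were described beside the chaperones by the same lists. Over the 6 triplicate comparisons of genotypes 0 of 11 kept genes of this list were counted as changed, against 0.224 to 0.298% of all kept genes, a share at which a count of 0 says little. *atf4a*, a factor of the integrated stress response, was 1064 FPKM (289 to 1839) in wildtype embryos at 21 hpf and 459 (219 to 700), 682 and 607 FPKM in Tbx5a-, Tbx5b- and double-deficient embryos, with overlapping bounds. In the preliminary libraries at 21 hpf it was 271 (200 to 342), 250 and 539 FPKM (397 to 681), highest in the library labelled Tbx5b-deficient, whose bounds lay apart from wildtype at a log2 ratio of 0.99. *xbp1*, which drives the genes of endoplasmic reticulum folding, was 387, 250, 298 and 295 FPKM in the triplicate groups at 21 hpf and 246, 209 and 245 FPKM in the preliminary libraries, with overlapping bounds.

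Over the 8 triplicate groups, *hsp90ab1* and *hspb1* had a Pearson r of 0.893, *hsp90ab1* and *hspa8* of 0.880, and *hsp90ab1* and *hspa9* of -0.886. These describe 8 pooled values that share their processing. They were taken on the deposited scale, whose sums differ between groups, and not at equal sums, so their size and sign may depend on the scale. *hspa9* was highest in Tbx5a-deficient embryos at 21 hpf and Tbx5b-deficient embryos at 18 hpf, the groups with the lowest sums of all FPKM.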
